A study of Rattus norvegicus with 20 samples.

Results

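The genes described here are 9 PPAR target and fatty acid oxidation genes of the dorsal root ganglion (DRG): Cpt1a, Cpt2, Acadvl, Acadm, Hadha, Pdk4, Angptl4, Plin2, and Ppara. The rule that picks them is a list of gene names with no threshold on a measured value, and all 9 were found among the 39747 genes of the count table. RNA was sequenced from DRG of 14 female Sprague-Dawley rats, 1 week after surgery, as 20 libraries. All rats ate an AIN-93G-based diet for 4 weeks before surgery, in which the fat was soy oil (SOD) or a fish oil rich in the omega-3 fatty acids DHA and EPA (FOD). The sources also give 4 weeks of diet after surgery, which is longer than the 1 week to tissue collection, so the diet time of these rats after surgery is uncertain. Chronic constriction injury (CCI) was made with loose chromic gut ligatures around the left sciatic nerve, and sham (CT) rats had the nerve exposed without ligatures. The left DRG gave 4 SOD-CT, 3 FOD-CT, 3 SOD-CCI, and 4 FOD-CCI libraries (a sample each of SOD-CCI and FOD-CT had been dropped before library preparation), and the right DRG of 3 SOD-CCI and 3 FOD-CCI rats gave 6 contralateral libraries, so that 6 rats are represented on both sides. The contralateral DRG comes from operated rats and is not an uninjured animal's ganglion. Library totals had group medians between 25322877 and 34293200 counts.

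Peroxisome proliferator-activated receptors (PPARs) are nuclear receptors that bind fatty acids, long-chain omega-3 fatty acids among them, and pair with retinoid X receptors on DNA. Genes under PPARα code for enzymes that carry fatty acids into mitochondria and break them down, and for proteins that store lipid or restrain its release. The DRG holds sensory neurons, glia, macrophages, and vessels, and the oxidation genes are also strongly expressed in skeletal muscle. In bulk tissue, fewer cells of a type and less RNA per cell cannot be told apart.

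No member differed between the diets in any of the 3 regions by the criteria of the study, an adjusted p no higher than 0.1 (here from edgeR) with a change of 1.2-fold or more. Plin2, which codes for perilipin 2, the coat protein of lipid droplets, was the member with the clearest difference by injury: it was higher in the injured DRG of SOD-CCI rats than in every SOD-CT library, and higher in the injured than in the contralateral DRG in 6 of 6 rats, but edgeR called it in neither comparison. The edgeR adjusted p was 0.266 against sham and 0.235 between the sides on SOD, and 1.00 and 0.623 on FOD, where the injured and sham groups overlapped. DESeq2, the tool named in the study's methods, called Plin2 in both comparisons on SOD (adjusted p = 0.0642 and 0.0449) and in neither on FOD. How many of all genes were higher on the injured side in 6 of 6 rats was not counted. The sham values of Acadm, Cpt2, Acadvl, and Pdk4 turned on 1 SOD-CT library that carried skeletal muscle transcripts. The same library was the lowest of all for Cpt1a, Angptl4, and Plin2. Without it, the sham log2 difference between the diets changed direction for Cpt1a (−0.17) and Angptl4 (−0.14) too.

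That library is SOD-CT replicate 1. A list of 15 skeletal muscle genes took 142573 CPM (counts scaled to the library total) in it, 14.3% of its counts, and 31464 CPM in FOD-CT replicate 2, against at most 10951 CPM in the other 18 libraries. SOD-CT replicate 1 and FOD-CT replicate 2 are the 2 libraries with muscle transcripts left out below. The sham libraries that remain were not all free of muscle genes. SOD-CT replicates 2, 3, and 4 had 214, 11.8, and 7592 CPM, and FOD-CT replicates 1 and 3 had 2420 and 781 CPM. The sum was 13.8 to 82.4 CPM in SOD-CCI and 10.4 to 283 CPM in FOD-CCI. Spinal cord glia genes summed to 2413 to 3803 CPM in 3 FOD libraries, each the replicate 1 of its group (sham, injured, contralateral), and to no more than 67.2 CPM in the remaining libraries. The 12 sensory neuron genes summed to 8939 CPM in SOD-CT replicate 1 and 4688 CPM in contralateral FOD-CCI replicate 1, and to at least 15421 CPM in the other libraries. Their part in the results was not tested beyond leaving these libraries out, and values with and without them are given where they bear on a member.

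The promoters of the members were taken from RefSeq on the GRCr8 build, which matched all 9 genes with 10 windows, since Plin2 has 2 annotated starts. They are shown because PPAR with its partner binds a direct repeat of the hexamer AGGTCA spaced by a single base. The full repeat AGGTCANAGGTCA, searched on both strands of windows of 300 bases (250 before the start and 50 after it), was in 0.0538% of all 33469 promoters, and a relaxed form, AGGNCANAGGNCA, in 0.415%. The members' windows held neither form, and the hexamer alone, present in 16.2% of all promoters, was found in 1 of the 10 windows, that of Acadvl, with 2 matches. The forms overlap, since each full repeat also holds the hexamer. These are letter matches, and their absence from a window says nothing of binding elsewhere. The 250 bases upstream of both Plin2 starts, on the minus strand at chr5:106229019-106229268 and chr5:106228538-106228787, and of the Acadvl start, on the minus strand at chr10:55236706-55236955, follow 5′ to 3′, with the hexamer in capitals.
Plin2, upstream start: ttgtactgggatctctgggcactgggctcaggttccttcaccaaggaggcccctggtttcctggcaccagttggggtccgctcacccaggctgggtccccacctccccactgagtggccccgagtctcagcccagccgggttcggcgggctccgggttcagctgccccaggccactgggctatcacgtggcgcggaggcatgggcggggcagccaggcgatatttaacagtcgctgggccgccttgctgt
Plin2, downstream start: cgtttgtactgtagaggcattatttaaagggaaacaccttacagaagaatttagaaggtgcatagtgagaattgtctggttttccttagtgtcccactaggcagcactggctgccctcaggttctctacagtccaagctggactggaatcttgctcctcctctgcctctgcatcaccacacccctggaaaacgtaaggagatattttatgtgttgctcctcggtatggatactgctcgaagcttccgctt
Acadvl: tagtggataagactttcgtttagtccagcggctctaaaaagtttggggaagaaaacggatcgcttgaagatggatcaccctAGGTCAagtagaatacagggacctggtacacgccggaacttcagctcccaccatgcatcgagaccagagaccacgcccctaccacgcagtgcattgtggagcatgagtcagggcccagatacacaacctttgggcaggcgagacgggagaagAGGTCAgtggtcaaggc
The upstream Plin2 window had a GC content of 67.2% and the downstream window 47.2%, and neither holds the hexamer on either strand.

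Levels differed widely among the members. On the per-length scale (FPKM as deposited), the median over 20 libraries was 86.0 for Hadha, 40.3 for Acadm, 39.1 for Acadvl, 34.2 for Plin2, 28.0 for Cpt1a, 10.7 for Cpt2, 4.73 for Angptl4, 4.13 for Pdk4, and 0.643 for Ppara. The β-oxidation enzymes Hadha, Acadm, and Acadvl were thus at the top of the order, Plin2 stood above the carnitine shuttle enzymes, and the receptor itself was at the bottom. Neighbors from Acadm to Cpt1a had overlapping ranges over libraries (FPKM of 33.3 to 440, 29.5 to 153, 16.2 to 65.4, and 12.8 to 36.5), as did Angptl4 (1.14 to 8.16) and Pdk4 (1.25 to 22.2). Without the 2 libraries with muscle transcripts, Hadha was the steadiest member, with a highest CPM 1.40 times its lowest over 18 libraries, and Pdk4 the most variable of the 8 members found in every library, at 7.53 times. The highest Pdk4 value among these 18, in contralateral FOD-CCI replicate 3, was in the library with the next highest sum of muscle genes (10951 CPM).

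**Figure D1:**
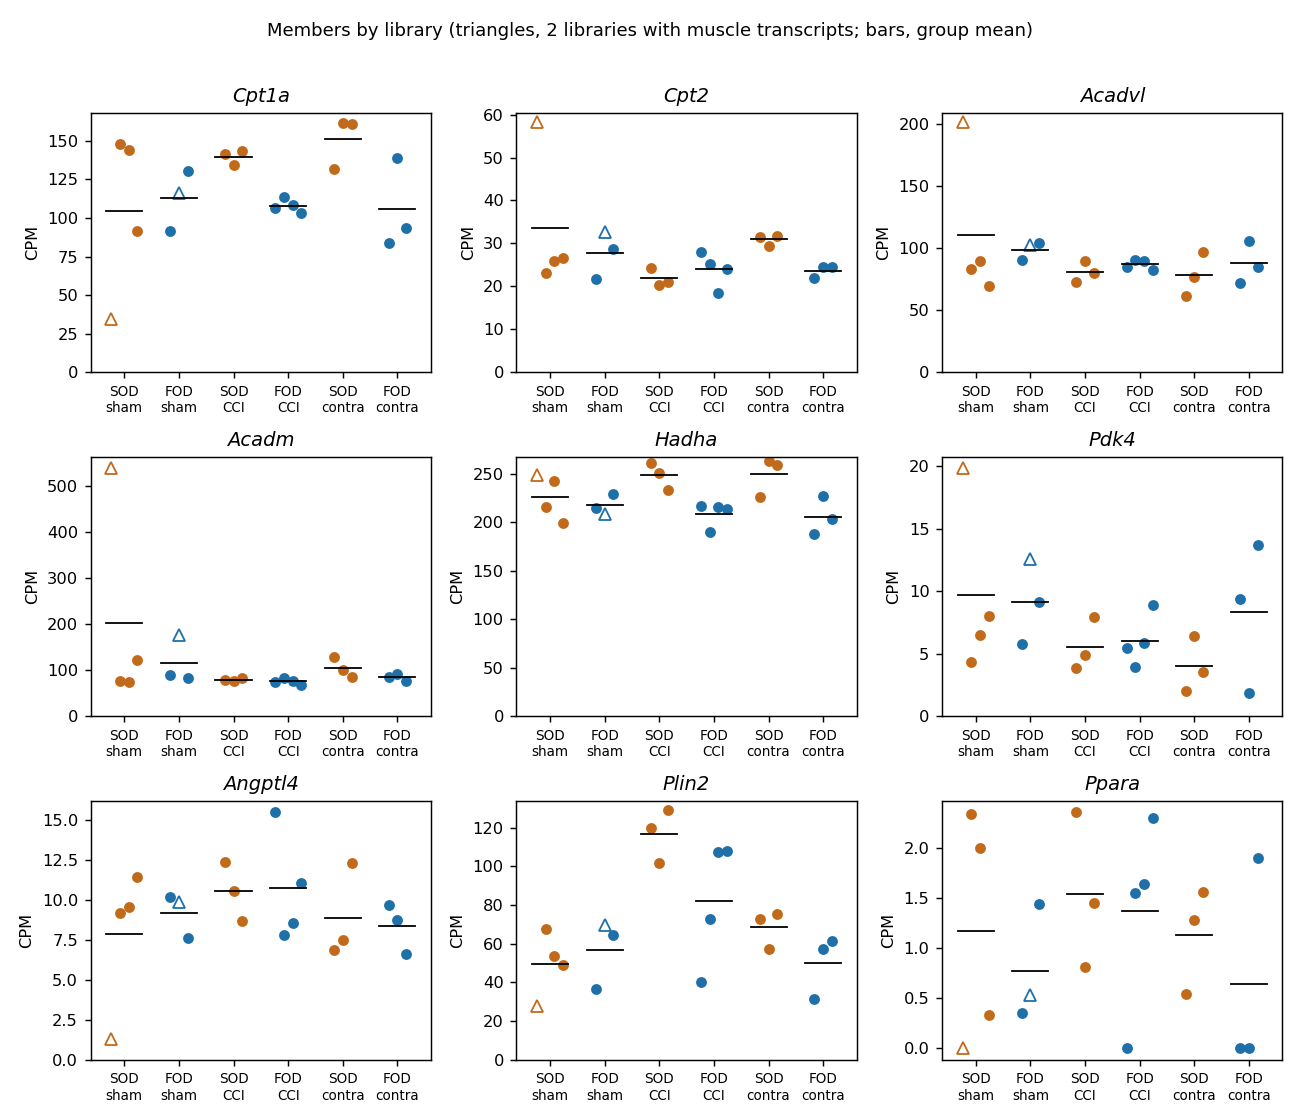
CPM of each of the 9 members in 20 libraries, by group (sham, injured, and contralateral DRG on soy oil in orange and fish oil in blue); bars are group means and open triangles are SOD-CT replicate 1 and FOD-CT replicate 2. SOD-CT replicate 1 is the highest library for Cpt2, Acadvl, Acadm, and Pdk4 and the lowest for Cpt1a, Angptl4, and Plin2.

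The carnitine shuttle moves long-chain fatty acids into mitochondria. Cpt1a (NCBI gene 25757), the liver-type carnitine palmitoyltransferase 1 and the rate-limiting step of the shuttle, had CPM of 34.8, 148, 144, and 91.4 in SOD-CT and 91.3, 116, and 131 in FOD-CT. In injured DRG it stood at 141, 134, and 143 in SOD-CCI and at 106, 114, 109, and 103 in FOD-CCI. The injured groups did not overlap, with all 4 FOD-CCI libraries under all 3 SOD-CCI libraries, whereas the sham groups did. In contralateral DRG, Cpt1a was 132, 162, and 161 CPM on SOD and 83.7, 139, and 93.7 CPM on FOD, where 1 FOD library lay among the SOD libraries.

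By edgeR, the log2 difference of Cpt1a between FOD and SOD was 0.06 in sham DRG (SE 0.28, 95% interval −0.53 to 0.65), −0.31 in injured DRG (SE 0.27, −0.90 to 0.28), and −0.52 in contralateral DRG (SE 0.28, −1.16 to 0.11, adjusted p = 0.57). The sham value was −0.24 without both libraries with muscle transcripts. The interval in injured DRG runs from 0.537 to 1.22 times the SOD level. It comes from 1 model for all 4 left groups, sham libraries included, and not from the injured rats alone. The injured difference was −0.35 to −0.14 over the alternatives, a fit of the injured groups alone among them. The adjusted p there was at least 0.429 (edgeR or DESeq2). The SD of Cpt1a was 4.76 CPM in SOD-CCI and 4.51 CPM in FOD-CCI, against 53.2 CPM in SOD-CT and 19.9 CPM in FOD-CT. Cpt1a was the member with the smallest p in the contralateral comparison. The FOD libraries at 83.7 and 93.7 CPM there were replicate 1, with spinal cord transcripts, and replicate 3, with 10951 CPM of muscle genes. The part of these tissues was not tested. With other settings or with a library left out, the contralateral difference was −0.81 to −0.36.

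Cpt2 (25413), the inner membrane enzyme that releases the fatty acid from carnitine, was 58.3, 23.2, 26.01, and 26.7 CPM in SOD-CT and 21.8, 32.5, and 28.8 CPM in FOD-CT. It was 24.2, 20.3, and 21.1 CPM in SOD-CCI and 28.1, 25.3, 18.5, and 24.0 CPM in FOD-CCI, groups that overlap. In contralateral DRG it was 31.6, 29.5, and 31.7 CPM on SOD and 22.0, 24.4, and 24.6 CPM on FOD, and here all 3 FOD libraries were below all SOD libraries. The edgeR log2 difference between the diets was −0.58 in sham DRG (SE 0.43), 0.19 in injured DRG (SE 0.42), and −0.39 in contralateral DRG (SE 0.26, 95% interval −0.98 to 0.20, adjusted p = 0.626). None passed the test. The contralateral value was −0.47 to −0.31 with other settings or with a library left out. The sham value was −0.06 without both libraries with muscle transcripts.

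Mitochondrial β-oxidation starts with the acyl-CoA dehydrogenases. Acadvl (25363), which acts on very long chains, ranged from 69.5 to 202 CPM in SOD-CT and from 90.5 to 104 CPM in FOD-CT, from 72.6 to 89.99 CPM in SOD-CCI and from 82.7 to 90.7 CPM in FOD-CCI, and from 61.6 to 96.97 and from 72.3 to 106 CPM in contralateral DRG on SOD and FOD. Every pair of diet groups overlapped. The edgeR log2 differences of Acadvl between the diets were −0.49, 0.17, and 0.16 in sham, injured, and contralateral DRG, with SE of 0.42, 0.42, and 0.27, and the sham value was 0.22 without both libraries with muscle transcripts. Acadm (24158), which acts on medium chains, was 539, 76.6, 73.2, and 121 CPM in SOD-CT and 89.4, 176, and 82.8 CPM in FOD-CT, so that both sham groups held 1 library far above the others. In injured DRG it was even, at 79.2, 75.3, and 82.0 CPM in SOD-CCI and 73.5, 83.5, 76.6, and 68.1 CPM in FOD-CCI.

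The Acadm log2 difference between FOD-CT and SOD-CT was −1.24 (edgeR, SE 0.72, adjusted p = 0.965). It was −0.15 without both libraries with muscle transcripts and 0.37 without SOD-CT replicate 1 alone. In injured DRG, the difference between the diets was 0.00 (SE 0.70). The interval there, −1.49 to 1.497, comes from 1 model for all 4 left groups, sham libraries included.

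Hadha (170670), the α subunit of the mitochondrial trifunctional protein, was 249, 215, 242, and 199 CPM in SOD-CT and 215, 208, and 229 CPM in FOD-CT. It was 261, 250.98, and 233 CPM in SOD-CCI and 217, 189, 216, and 213 CPM in FOD-CCI, and these injured groups did not overlap, as for Cpt1a. In contralateral DRG it was 226, 263, and 258 CPM on SOD and 187, 226, and 203 CPM on FOD, where the highest FOD library was just above the lowest SOD library. The edgeR log2 difference was −0.26 (SE 0.22) in sham, −0.19 (SE 0.22, 95% interval −0.65 to 0.28) in injured, and −0.28 (SE 0.25) in contralateral DRG, with adjusted p of 0.965, 0.914, and 0.709.

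Among the PPAR targets outside the oxidation pathway, Pdk4 (89813) codes for a kinase that turns off pyruvate dehydrogenase and so spares glucose. Its CPM were 19.8, 4.34, 6.50, and 7.99 in SOD-CT, 5.73, 12.6, and 9.09 in FOD-CT, 3.83, 4.89, and 7.91 in SOD-CCI, and 5.43, 3.96, 5.82, and 8.92 in FOD-CCI. In contralateral DRG they were 2.01, 6.38, and 3.499 on SOD and 9.36, 1.82, and 13.7 on FOD, so that the lowest and the highest of these 6 libraries were both FOD. The contralateral log2 difference of 1.06 had an SE of 0.75 and a 95% interval of −0.63 to 2.75 (edgeR adjusted p = 0.647), and it was 0.42 without FOD contralateral replicate 3, the contralateral library with the most muscle transcripts, and 1.51 without FOD contralateral replicate 2.

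Angptl4 (362850), a secreted inhibitor of lipoprotein lipase, was 1.32, 9.19, 9.55, and 11.4 CPM in SOD-CT and 10.2, 9.83, and 7.61 CPM in FOD-CT. It was 12.3, 10.6, and 8.67 CPM in SOD-CCI and 15.5, 7.79, 8.54, and 11.0 CPM in FOD-CCI, and from 6.63 to 12.3 CPM in contralateral DRG. SOD-CT replicate 1 was the lowest of all libraries, and no other was under 6.63 CPM. The edgeR log2 differences between the diets were 0.19, 0.09, and −0.10 in sham, injured, and contralateral DRG, with SE of 0.46, 0.46, and 0.41. The sham value was −0.25 without both libraries with muscle transcripts.

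Plin2 (298199) was 28.0, 67.8, 53.7, and 49.2 CPM in SOD-CT and 36.8, 69.7, and 64.5 CPM in FOD-CT. In injured DRG it was 120, 102, and 129 CPM in SOD-CCI and 40.0, 72.7, 107, and 108 CPM in FOD-CCI. All 3 SOD-CCI libraries were above all sham libraries, and of the 4 FOD-CCI libraries, 1 lay within the sham range, 2 within the SOD-CCI range, and 1, at 72.7 CPM, between them. The edgeR log2 difference between FOD-CCI and SOD-CCI was −0.45 (SE 0.33, 95% interval −1.15 to 0.25, adjusted p = 0.862). It was −0.22 without FOD-CCI replicate 1, the lowest of the FOD-CCI libraries and the one with spinal cord transcripts. In sham and contralateral DRG, the differences between the diets were 0.11 (SE 0.33) and −0.44 (SE 0.32). The sham value was −0.21 without both libraries with muscle transcripts. The contralateral value was −0.18 without FOD contralateral replicate 1, which also carried spinal cord transcripts.

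Ppara (25747), the receptor gene, was at 0 to 2.35 CPM and under 10 counts in 5 of 20 libraries, so that it did not pass the filter on low counts and 8 of the 9 members entered the edgeR test. Its CPM were 0, 2.34, 1.998, and 0.327 in SOD-CT and 0.350, 0.525, and 1.43 in FOD-CT, 2.35, 0.809, and 1.45 in SOD-CCI, and 0, 1.54, 1.63, and 2.30 in FOD-CCI. All diet and injury groups overlapped. The two-sided exact permutation test of the difference in mean CPM between the diets gave p = 0.629 in sham, 0.971 in injured, and 0.6 in contralateral DRG, where the smallest p that these group sizes allow is 0.0286 for the first 2 regions and 0.1 for the third.

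As a group, 0 of the 8 tested members were called between FOD-CT and SOD-CT by edgeR or DESeq2 (DESeq2 gave no p for Acadm in left DRG), beside 0% of 14484 genes called by edgeR, and 0 had an unadjusted p under 0.05, beside 3.39% of all genes. The sham groups overlapped for all 8 (3.01% of genes did not overlap). Between FOD-CCI and SOD-CCI, 0 of 8 were called by either tool (0% of all genes by edgeR) and 0 had an unadjusted p under 0.05 (5.4% of genes), and the 2 members whose groups did not overlap, Cpt1a and Hadha, compare with 15.2% of all genes. In contralateral DRG, 0 of 8 were called by either tool (0% of 13590 genes by edgeR), 0 had an unadjusted p under 0.05 (9.51%), and the groups of 1 member, Cpt2, did not overlap (17.3%). The median log2 difference of the members was −0.34, 0.04, and −0.31 in the 3 regions, against −0.01, 0.04, and 0.02 over all genes tested. Without both libraries with muscle transcripts, the sham median was −0.10. The widest intervals of a member were −2.79 to 0.30 in sham DRG, for Acadm, and −0.63 to 2.75 in contralateral DRG, for Pdk4.

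**Figure D2:**
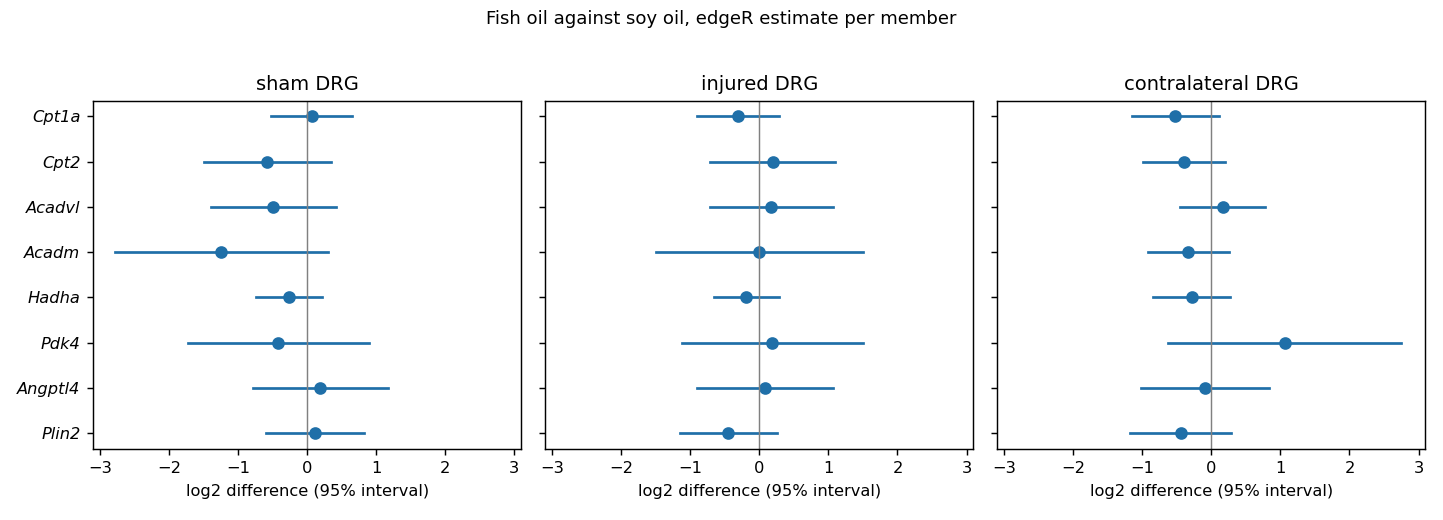
Log2 difference between fish oil and soy oil for the 8 tested members in sham, injured, and contralateral DRG; points are edgeR estimates and lines 95% intervals. Every interval crosses 0, and the widest are those of Acadm and Pdk4.

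The comparison of injured with sham DRG asks how the members differ with nerve injury on each diet. The SOD-CCI and FOD-CCI libraries are those of the diet comparison, and SOD-CT and FOD-CT those of the sham comparison, so these results share samples. On SOD, Plin2 averaged 117 ± 13.8 CPM (SD, n = 3) after CCI and 49.7 ± 16.5 CPM (n = 4) in sham rats, a log2 difference of 1.10 (edgeR, SE 0.33, 95% interval 0.40 to 1.81, 2.15-fold, adjusted p = 0.266). The groups did not overlap, as for 17.5% of all genes. Plin2 was 1 of 3 members with an unadjusted p under 0.05, beside 13.8% of all genes, and 0 of 8 were called by edgeR (0% of all genes). With DESeq2, Plin2 passed (adjusted p = 0.0642), 1 of 594 genes called of 14484, as it did in edgeR without FOD-CT replicate 1 and FOD-CCI replicate 1, the left libraries with spinal cord transcripts (adjusted p = 0.072). Without both libraries with muscle transcripts, the difference was 1.01 (edgeR adjusted p = 0.515). The sum of 6 macrophage marker genes was 132 to 213 CPM in SOD-CCI and 32.2 to 144 CPM in SOD-CT, ranges that overlap, and their part in the Plin2 difference was not tested.

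The other 2 members under 0.05 were Acadm, with a log2 difference of −1.86 (edgeR, SE 0.74, adjusted p = 0.32), and Cpt2, with −0.96 (SE 0.43, adjusted p = 0.35). These values rest on SOD-CT replicate 1. Without both libraries with muscle transcripts, they were −0.25 and −0.24 (edgeR adjusted p = 0.809 and 0.814), that of Acadvl went from −0.82 to −0.03, and that of Pdk4 from −1.20 to −0.23. The median of the 8 members went from −0.46 to 0.00 (all genes −0.01 and −0.02).

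On FOD, Plin2 averaged 81.9 ± 32.4 CPM (SD, n = 4) after CCI and 57.0 ± 17.7 CPM (n = 3) in sham rats, a log2 difference of 0.54 (edgeR, SE 0.33, 95% interval −0.18 to 1.25, adjusted p = 1.00). The groups overlapped, and the value was 0.77 (edgeR adjusted p = 0.343) without FOD-CCI replicate 1 and 0.27 without FOD-CT replicate 1, both of which carried spinal cord transcripts and were the lowest of their groups. Without both libraries with muscle transcripts it was 0.76 (edgeR adjusted p = 0.781). No member was called by edgeR or DESeq2 (0% of all genes by edgeR), none had an unadjusted p under 0.05 (4.52% of genes), and none had groups that did not overlap (4.59%). The difference between the 2 injury effects was itself tested: for Plin2 it was −0.56 (FOD minus SOD, SE 0.46, 95% interval −1.56 to 0.43, edgeR adjusted p = 0.894). Of the 8 members, 0 were called by edgeR (0% of all genes; DESeq2 gave an adjusted p for 1 member, Hadha, and did not call it) and 0 had an unadjusted p under 0.05 in this test (5.01% of genes).

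**Figure D3:**
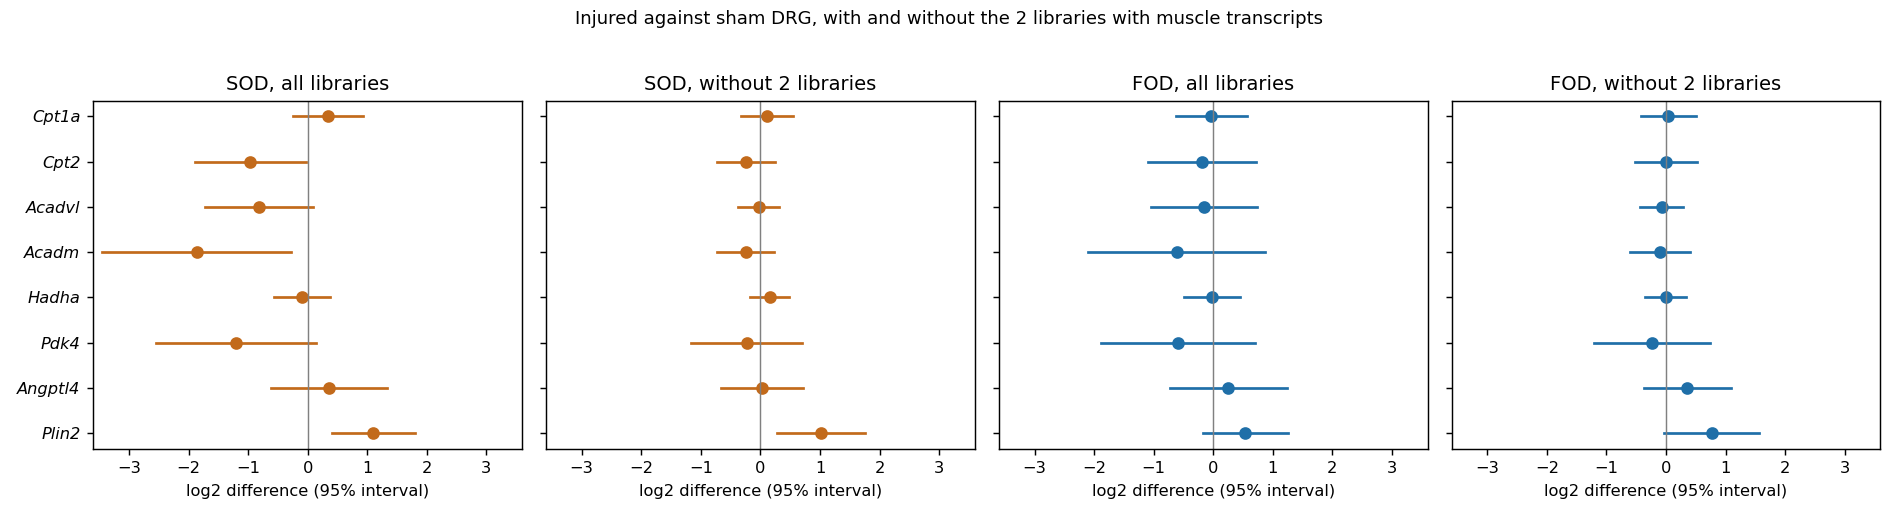
Log2 difference between injured and sham DRG for 8 members on soy oil (orange) and fish oil (blue), with all 14 left libraries and without SOD-CT replicate 1 and FOD-CT replicate 2; points are edgeR estimates and lines 95% intervals. On soy oil, Acadm moves from −1.86 to −0.25 when these libraries are left out, and Plin2 stays near 1.

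The contralateral DRG allows a comparison within a rat. Plin2 was 120, 102, and 129 CPM in the injured DRG of SOD-CCI rats and 72.7, 57.2, and 75.4 CPM in the contralateral DRG of the same rats, ratios between 1.65 and 1.78. In FOD-CCI rats, it was 40.0, 72.7, and 107 CPM on the injured side and 31.3, 57.5, and 61.6 CPM on the other, ratios between 1.27 and 1.74. The injured side was higher in each of the 6 rats. The share of all genes with this direction in all 6 rats was not counted, so how common it is cannot be said. With the rat as a block, the log2 difference was 0.73 on SOD (edgeR, SE 0.17, 95% interval 0.34 to 1.11, adjusted p = 0.235) and 0.51 on FOD (SE 0.17, 0.13 to 0.90, adjusted p = 0.623). Macrophage markers summed to 22.46 to 60.3 CPM in the contralateral DRG on SOD, below the injured side, and to 98.6 to 239 CPM on FOD, which overlapped the 125 to 247 CPM of the injured side of the same 3 rats. Their part was not tested.

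**Figure D4:**
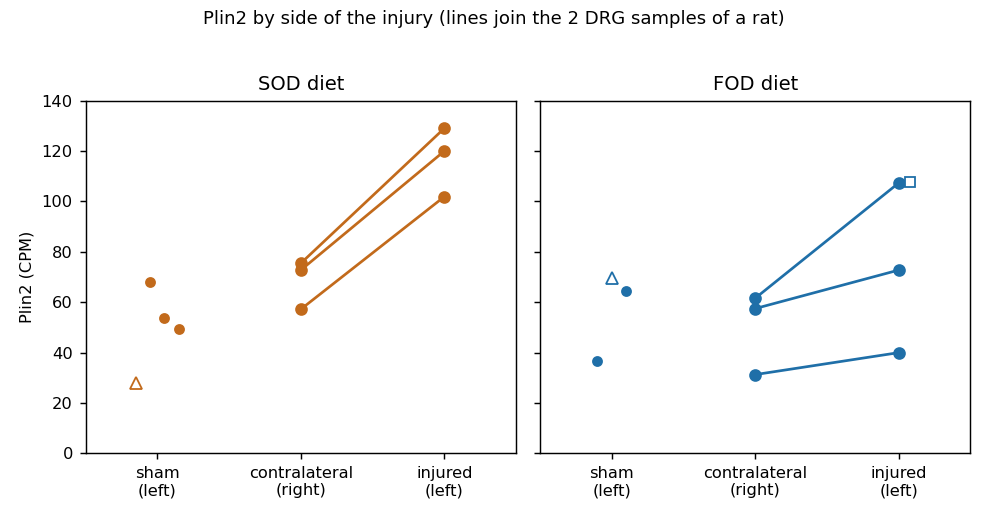
Plin2 CPM in sham, contralateral, and injured DRG on each diet; lines join the 2 sides of a rat, open triangles are the libraries with muscle transcripts, and the open square is the FOD-CCI rat without a contralateral library. All 6 lines rise to the injured side, from 1.27 to 1.78 times.

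No other tested member had the same direction in all 6 rats. Of the 8 tested members, 0 were called by edgeR on SOD, beside 0.131% of 14549 genes, and 0 on FOD, beside 0.0137%. With an unadjusted p under 0.05 there were 3 members on SOD (8.48% of genes), namely Plin2, Cpt2 (log2 difference −0.55, SE 0.23, lower on the injured side in 3 of 3 rats), and Acadm (−0.44, SE 0.19, 3 of 3), and 1 on FOD, Plin2 (6.96% of genes). On FOD, the values of Cpt2 and Acadm were 0.01 and −0.09 (SE 0.23 and 0.19). DESeq2 called 1 member on SOD, Plin2 (adjusted p = 0.0449), among 472 of 14549 genes, and edgeR called it without both DRG of FOD-CCI replicate 1 (adjusted p = 0.0617). Whether these side differences differ between the diets was not tested.

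The members were read beside the other genes of the pathway, 63 genes in 6 lists, of which 51 were tested in left DRG. Between the diets, 0 of the 51 had an unadjusted p under 0.05 in sham or injured DRG (3.39% and 5.4% of all genes), and 1 of 53 did in contralateral DRG (9.51% of all genes). When both libraries with muscle transcripts were left out, 1 of 52 did in sham DRG (3.93% of all genes) and 5 of 52 in injured DRG, 4 higher and 1 lower on FOD (9.79% of all genes). The contralateral gene was Eci1, an enoyl-CoA isomerase of mitochondrial β-oxidation, at 61.6, 35.4, and 68.7 CPM on FOD and 20.1, 34.0, and 22.3 CPM on SOD (edgeR log2 difference 1.11, SE 0.34, adjusted p = 0.503). The FOD libraries at 61.6 and 68.7 CPM were replicate 1, with spinal cord transcripts, and replicate 3, with 10951 CPM of muscle genes. Eci1 was highest of all in SOD-CT replicate 1, at 78.7 CPM. The part of these tissues was not tested, and the difference was 0.83 to 1.37 with other settings or with a library left out. The receptor genes Ppard and Pparg and the coactivator gene Ppargc1a had log2 differences of −0.16, 0.41, and −0.26 between FOD-CCI and SOD-CCI, with SE of 0.23, 0.75, and 0.44.

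In SOD-CCI against SOD-CT, 18 of 51 pathway genes had an unadjusted p under 0.05, 14 lower and 4 higher after injury, beside 13.8% of all genes, and 0 were called by edgeR. The lower genes included 7 of the 16 tested mitochondrial β-oxidation genes, among them Etfa, a subunit of the electron transfer flavoprotein (edgeR log2 difference −1.55, SE 0.45), and Fabp3, a fatty acid binding protein of heart and muscle (−2.59, SE 0.72). Of the 12 pathway genes with the smallest p, DESeq2 called 5, Fabp3, Etfa, Lpl, and Cd36 among them, and gave no adjusted p for Pparg. Without both libraries with muscle transcripts, 5 of 52 pathway genes had an unadjusted p under 0.05 by edgeR, beside 7.96% of all genes. Fabp3 (−1.37) and Etfa (−0.999) were lower, and the 3 that were higher included Pparg (1.43) and Crat (0.47), the last named after its value was seen. SOD-CT replicate 4, kept in this fit, had 7592 CPM of muscle genes, and its part was not tested.

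Pparg, the PPAR of adipocytes and macrophages, was low, at 5.79, 3.30, and 5.46 CPM in SOD-CCI and 0, 1.66, 1.76, and 1.85 CPM in SOD-CT. On FOD it was 3.79, 7.62, 7.77, and 5.49 CPM after CCI and 1.88, 2.25, and 1.83 CPM in sham rats, so that the injured libraries were above the sham libraries on both diets. Injured and sham groups did not overlap for 17.5% of all genes on SOD and 4.59% on FOD. The SOD-CT library at 0 CPM was replicate 1, with muscle transcripts. The log2 difference was 1.84 on SOD (edgeR, SE 0.76, adjusted p = 0.327) and 1.67 on FOD (SE 0.79, adjusted p = 1.00).

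Within each rat, 5 of 53 pathway genes on SOD and 5 of 53 on FOD had an unadjusted p under 0.05 between the injured and the contralateral side, beside 8.48% and 6.96% of all genes, which is near the share of pathway genes. They are named here after their values were seen. On SOD, all 5 were lower on the injured side: Abcd2 (edgeR log2 difference −1.14), Fabp3 (−1.29), Slc25a20 (−0.59), Acot8 (−0.67), and Ech1 (−0.43). On FOD, Lpl (−1.18), Eci1 (−0.90), Ehhadh (−1.46), and Ech1 (−0.43) were lower and Pparg (2.16, SE 0.82) was higher. None was called. Muscle genes summed to 10951 CPM in FOD contralateral replicate 3 and 11.2 CPM on that rat's injured side. For replicate 2 on SOD, the sums were 2787 and 14.7 CPM. In SOD-CT replicate 1, Fabp3, Lpl, and Eci1 were at their highest, Pparg at its lowest, and the other genes named here at neither. The part of muscle was not tested.

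The muscle transcripts of SOD-CT replicate 1 came with a changed order among the members. Its CPM was the highest of 20 libraries for 4 of the 9 members and the lowest for 3. Acadm was 539 CPM there and between 68.1 and 176 CPM elsewhere, and Cpt1b, the muscle-type carnitine palmitoyltransferase 1, was 72.6 CPM, against 24.3 CPM in FOD-CT replicate 2 and at most 5.49 CPM in the other 18 libraries. Cpt1a, the liver type, was 34.8 CPM there and at least 83.7 CPM elsewhere. Among the 63 pathway genes, 24 were at their highest and 17 at their lowest in this library.

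**Figure D5:**
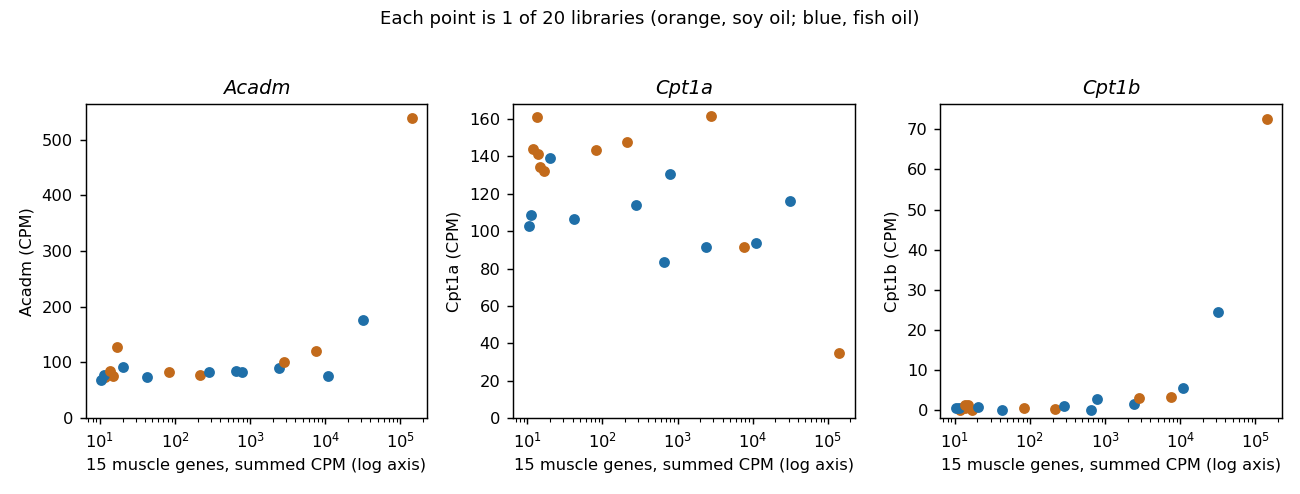
CPM of Acadm, Cpt1a, and Cpt1b in each of the 20 libraries against the summed CPM of 15 skeletal muscle genes (log axis), soy oil in orange and fish oil in blue. The rightmost point, SOD-CT replicate 1, is the highest for Acadm (539 CPM) and Cpt1b (72.6 CPM) and the lowest for Cpt1a (34.8 CPM).

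The genes whose log2 CPM followed a member most closely over the 20 libraries differed from member to member. For Plin2 they included Anxa11 and Itgb1 (Pearson r of 0.946 and 0.943), and with group means subtracted Vwa5a, Fabp5, and Il13ra1 (0.944, 0.933, and 0.933). For Pdk4 they were Dmpk, Kbtbd12, and H19 (0.856, 0.824, and 0.822), of which Dmpk is a muscle kinase gene, for Acadvl Acsl1, a long-chain acyl-CoA synthetase (0.845), and for Cpt2 Prdx3, Ubac1, and Acadm (0.875, 0.859, and 0.852). These correlations share libraries, depth, and the muscle content of 2 libraries, and are given without a test. Without these 2 libraries, the closest pair of members over 18 libraries was Cpt1a and Hadha (r of 0.815).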

How the data were processed

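Poly(A) RNA of 20 DRG libraries was sequenced. According to the submitters' processing notes and the methods, the authors used fastp for trimming, HISAT2 for alignment, and featureCounts 1.5.0-p3 for gene counts. The deposited counts are whole numbers, unscaled and not pooled. The deposited FPKM values, made by the authors from those counts, divide by gene length and by 1 scale factor per library, so they were used to compare genes and not groups. The authors' build, strand setting, and treatment of multiply aligned reads are not given in the sources used here, so file coordinates are not printed and overlapping genes are uncertain.

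Groups were taken from the sample labels. Replicates are separate rats. A gene was kept when 90% of libraries or more (13 of 14 left libraries) reached 10 counts. The quasi-likelihood test of edgeR 4.0.16 (TMM factors, two-sided, with R 4.3.3 and limma 3.58.1) was run in 1 model of the 4 left groups, a separate model for the 6 contralateral libraries, and a model with the rat as a block for the 12 libraries of the 6 rats with both sides. P-values were adjusted over all genes (Benjamini-Hochberg), and a gene was called when its adjusted p was 0.1 or less and its fold 1.2 or more. DESeq2 1.42.0, relative log expression factors, no filter, a gene length trend, other models, and leaving out libraries were alternatives. The procedure was also run on simulated counts. Its outcome there is not reported here, so it gives no measure of power for these data. Differences are on the log2 scale, with 95% intervals that rest on the spread between rats in the fit.

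The members, the pathway lists (63 genes, all matched), and the marker lists (72 of 73 genes matched) were chosen with earlier results of these data known. Named beyond the members were Cpt1b, Ppard, Pparg, and Ppargc1a, up to 12 pathway genes with the smallest unadjusted p under 0.05 in the diet and injury comparisons, and the 3 genes most like a member by Pearson correlation. Genes without a symbol were not named, and some genes that the rule names are not reported here.

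Replicate numbers were checked for pairing by the correlation of deviations from the group means over 14435 genes. The 2 sides of a rat correlated with 0.114 to 0.43. FOD-CT and FOD-CCI libraries of the same number, which come from different rats, correlated with 0.429, 0.238, and 0.192, and the other comparisons had at least 1 correlation under 0.1.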

Additional observations from a re-analysis of the deposited data

Results flagged for a closer look

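Outliers were sought with Dixon's ratio in the 2 groups of 4 libraries, SOD-CT and FOD-CCI, for each of the 9 members, 18 groups in all, of which 4 were past the 95% critical value. Chance flags about 1 group in 20. In SOD-CT, replicate 1 stood above the other 3 libraries for Acadm (539 CPM, the next library at 121 CPM), Cpt2 (58.3 CPM, the next at 26.7 CPM), and Acadvl (202 CPM, the next at 89.7 CPM). This is the library in which skeletal muscle genes took 14.3% of the counts. In FOD-CCI, replicate 2 stood below the others for Hadha (189 CPM, the next at 213 CPM, the highest at 217 CPM). The diet by injury interaction was not past the threshold for any member.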

How the results depend on the processing

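No member was called between the diets under any of the alternatives run. The count of called members was otherwise 0 to 1: it became 1, Plin2, for SOD-CCI against SOD-CT with DESeq2 and without the left libraries with spinal cord transcripts, and for SOD-CCI against the contralateral DRG with DESeq2 and, among the leave-one-out values of 0 to 1, without both DRG of FOD-CCI replicate 1. Over all genes, DESeq2 called 594 genes in SOD-CCI against SOD-CT, 21 in FOD-CCI against FOD-CT, 2 in FOD-CCI against SOD-CCI, 0 in FOD-CT against SOD-CT, 42 in the interaction, 202 between the contralateral groups, and 472 and 264 between the sides on SOD and FOD, where edgeR called 0 in the first 6 and 19 and 2 in the last. Without the spinal cord libraries, edgeR called 87 in SOD-CCI against SOD-CT. Without the filter on low counts, it called 220 and 61 between the sides, and without the rat block 0 and 0. The cause was not tested.

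Of 1471 gene values under the alternatives, 70 changed direction, all with p of at least 0.0714. Without both libraries with muscle transcripts, FOD-CT against SOD-CT became 0.216 for Acadvl, −0.253 for Angptl4, −0.244 for Cpt1a, 0.179 for Pdk4, and −0.210 for Plin2, SOD-CCI against SOD-CT became 0.152 for Hadha, FOD-CCI against FOD-CT became 0.0399 for Cpt1a and 0.000767 for Cpt2, FOD-CCI against SOD-CCI became −0.000337 for Acadm, and the interaction became −0.0436 for Acadvl, 0.332 for Angptl4, −0.157 for Hadha, and −0.000311 for Pdk4. Without the spinal cord libraries, Angptl4 in FOD-CCI against SOD-CCI became −0.143. With the gene length trend, Cpt1a in FOD-CCI against FOD-CT became 0.0420 and Acadm in FOD-CCI against SOD-CCI −0.0164, which was −0.00272 with all 20 libraries in 1 model and −0.00721 without the filter. Acadvl between the sides on SOD became −0.00915 with DESeq2, −0.00230 with the length trend, −0.0161 without the filter, −0.00396 without the rat block, and −0.00898 with relative log expression factors. With the replicate number as a block, Cpt1a and Hadha in FOD-CCI against FOD-CT became 0.0341 and 0.0142 and Angptl4 in FOD-CCI against SOD-CCI −0.0153. The block changed no member's call, and Plin2 in FOD-CCI against FOD-CT was 0.454 with it (adjusted p = 1.00).
With 1 library (or both DRG of a rat) left out at a time, these values ranged from −0.078 to 0.17 for Acadvl, −0.044 to 0.30 for Cpt1a, −0.19 to 0.25 for Cpt2, −0.089 to 0.17 for Hadha, and −0.995 to 0.20 for Pdk4 in FOD-CCI against FOD-CCI-contralateral. The range was −0.20 to 0.067 for Cpt1a, −0.38 to 0.016 for Cpt2, and −0.079 to 0.015 for Hadha in FOD-CCI against FOD-CT. The range was −0.061 to 0.051 for Acadm, −0.14 to 0.24 for Angptl4, and −0.058 to 0.53 for Pdk4 in FOD-CCI against SOD-CCI. The range was −0.031 to 0.31 for Acadvl and −0.26 to 0.18 for Angptl4 in FOD-CCI-contralateral against SOD-CCI-contralateral. The range was −1.77 to 0.37 for Acadm, −0.70 to 0.30 for Acadvl, −0.14 to 0.44 for Angptl4, −0.17 to 0.23 for Cpt1a, −0.78 to 0.14 for Cpt2, −0.81 to 0.55 for Pdk4, and −0.13 to 0.38 for Plin2 in FOD-CT against SOD-CT. The range was −0.076 to 0.14 for Acadvl and −0.055 to 0.58 for Angptl4 in SOD-CCI against SOD-CCI-contralateral. The range was −0.19 to 0.13 for Hadha in SOD-CCI against SOD-CT. The range was −0.36 to 1.77 for Acadm, −0.12 to 0.88 for Acadvl, −0.36 to 0.22 for Angptl4, −0.18 to 0.17 for Hadha, and −0.37 to 0.99 for Pdk4 in the interaction. Between the sides, leaving out the second FOD-CCI rat gave −0.0162 for Acadvl on SOD and −0.0124 for Cpt2 on FOD, and leaving out the second SOD-CCI rat gave −0.0634 for Acadvl on SOD.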
